A study of Mus musculus with 6 samples.

Results

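The subject here is TNF, its receptors, the death receptors and the regulators of the cell death they start, in livers of mice fed a diet that causes metabolic dysfunction–associated steatohepatitis (MASH). All 10 genes of the set (*Tnf*, *Tnfrsf1a*, *Tnfrsf1b*, *Tnfrsf10b*, *Tnfrsf12a*, *Tnfrsf21*, *Fas*, *Cflar*, *Ripk3* and *Mlkl*) were found by gene symbol among the 25403 genes of the count table, each in a single row, and all 10 had enough counts to be tested. They were listed by name and function, not by a cutoff on these counts. Earlier results of these data were known when they and the gene lists below were chosen. Shares called among them are therefore a description. Bulk mRNA of whole liver was sequenced from 3 mice whose labels read wild-type C57BL6/J (WT) and from 3 with the label Themis KO (*Themis*-KO), a knockout in the whole body, so that T cells and every other cell type carry it along with hepatocytes. Both groups received the same diet, rich in fat (40% of its energy), fructose (20%) and cholesterol (2%), which began at 10 to 12 weeks of age and lasted 3 months. The labels give neither sex nor sequencing batch. The comparison asks how these genes differed between the labels after 3 months of the diet. No liver from before the diet or from another diet is included.

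In background terms, TNF is a cytokine made above all by macrophages and other immune cells, and its receptors are trimeric membrane proteins with cysteine-rich ectodomains. Death receptors such as TNFR1 (*Tnfrsf1a*), FAS, the TRAIL receptor DR5 (*Tnfrsf10b*) and DR6 (*Tnfrsf21*) carry a cytoplasmic death domain, whereas TNFR2 (*Tnfrsf1b*) and the TWEAK receptor FN14 (*Tnfrsf12a*) lack one and signal through TRAF adaptors. Receptor complexes either switch on NF-κB or activate caspase 8, which cFLIP (*Cflar*) restrains. Where caspase 8 is blocked, RIPK3 phosphorylates MLKL, which then ruptures the plasma membrane in necroptosis. In liver, hepatocytes are sensitive to FAS and, when NF-κB is inhibited, to TNF.

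Depth was alike, at 20679642 to 25649767 gene counts a library. Levels are TMM-scaled CPM, in which each gene's count is divided by its library's total times a TMM factor. They are therefore not plain shares of the library. The factors ran from 0.9339 to 0.9888 in WT livers and from 1.025 to 1.072 in livers labelled *Themis*-KO. The test throughout is the quasi-likelihood one of edgeR, Benjamini-Hochberg adjusted over 14496 genes, and a gene is called at an adjusted p under 0.05. Its log2 fold change (log2FC) is that of *Themis*-KO over WT. *Themis* itself did not separate the labels. It had a CPM of 8.07, 25.6 and 12.0 in WT replicates 1 to 3 and of 8.63, 7.74 and 9.97 in *Themis*-KO replicates 1 to 3, so every direction below belongs to livers labelled *Themis*-KO against livers labelled WT. WT replicates 1 and 2 also stood apart from the other 4 libraries. In the pooled counts of mitochondrial *mt-Nd3* and *Gm28438*, a pseudogene copy on chromosome 1, the copy took 96.6% and 96.8% there and 2.2% to 3.26% elsewhere, a split (called the mitochondrial type here) that is partly confounded with the label. Hepatocyte markers were abundant in every library, with a summed CPM of 65225 to 72220 over 10 markers in WT livers and of 51350 to 54559 in livers labelled *Themis*-KO. Most of each sum was *Alb*, at 39776 to 43023 and 33597 to 37327 CPM, which was not called (edgeR adjusted p = 0.185). Of the 10 markers 3 were called, all lower (*Ass1*, *Cyp2e1* and *Serpina1c*), where 4.14% of all genes tested were. *Hnf4a* had a log2FC of 0.045, and *Cps1*, *Tat* and *Fgb* overlapped between the labels. In whole liver, fewer cells of a type and less RNA per cell cannot be told apart.

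Of the 10 genes, 2 were higher in livers labelled *Themis*-KO, the death receptors *Tnfrsf10b* and *Tnfrsf21*, and none was lower. That is 20% of the set, against 4.97% of all genes tested that were higher, 4.14% that were lower and 9.11% called in either direction. *Tnfrsf12a* had the largest estimate of the set, with 5.54 times the WT level, and missed the threshold. Its *Themis*-KO replicate 3 lay close to WT replicate 3, and both were above WT replicates 1 and 2. At an unadjusted p under 0.05, 5 genes were higher (*Tnfrsf10b*, *Tnfrsf21*, *Tnfrsf12a*, *Tnfrsf1b* and *Mlkl*) and 0 lower, where 16.8% of all genes tested were higher and 13.9% lower. DESeq2 called 4 higher (the same genes without *Mlkl*) and 0 lower, with 9.18% of all genes higher and 7.83% lower in that test. *Tnf*, *Tnfrsf1a*, *Fas*, *Cflar* and *Ripk3* overlapped between the labels. The log2 fold changes of the set ran from −0.14 to 2.47 with a median of 0.47, and the median over all genes tested was 0.0095.

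**Figure D1:**
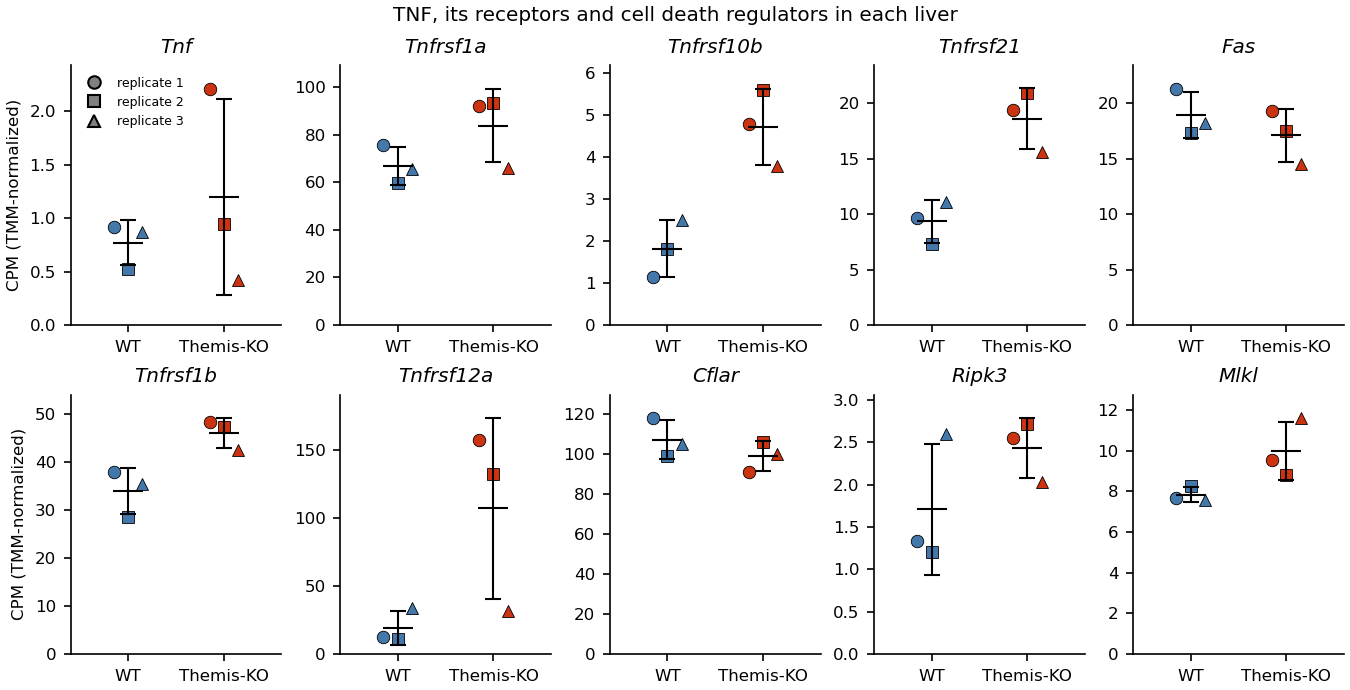
TMM-normalized CPM (vertical axes, each from 0) of the 10 genes in each liver, WT in blue and *Themis*-KO in red, with a symbol shape for each replicate and bars for mean and SD of 3 livers. Every liver labelled *Themis*-KO lies above every WT liver for *Tnfrsf10b*, *Tnfrsf21*, *Tnfrsf1b* and *Mlkl*. For *Tnfrsf12a*, *Themis*-KO replicate 3 lies close to WT replicate 3 and above WT replicates 1 and 2.

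For 4 genes (40% of the set) every single liver labelled *Themis*-KO lay above every WT liver, against 17.7% of all genes tested, and in 0 of the 10 did it lie below, against 16.9%. Some livers took the same place within their group for many of the 10 genes. *Themis*-KO replicate 3 was the lowest of its group for 8 of the 10 genes, all but *Cflar* and *Mlkl*, and WT replicate 2 was the lowest WT liver for 8 of them, all but *Tnfrsf10b* and *Mlkl*. WT replicate 3, the WT liver that shares the mitochondrial type of the livers labelled *Themis*-KO, was the highest WT liver for *Tnfrsf10b*, *Tnfrsf21*, *Tnfrsf12a* and *Ripk3*. WT replicate 1 was the highest for 5 genes (*Tnf*, *Tnfrsf1a*, *Fas*, *Tnfrsf1b* and *Cflar*) and WT replicate 2 for *Mlkl*. How often these places occur over all genes tested was not counted.

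*Tnf* (ENSMUSG00000024401) is the ligand of the set (chromosome 17, 35199381 to 35202007, reverse strand; all positions are on GRCm38). It was close to the detection limit, with 20, 11 and 22 counts in WT replicates 1 to 3 and 52, 22 and 9 in *Themis*-KO replicates 1 to 3, or a CPM of 0.917, 0.528 and 0.868 against 2.21, 0.946 and 0.425. *Themis*-KO replicates 1 and 3 were thus the highest and the lowest of all 6 livers, and the groups overlapped. Its log2FC came to 0.63 (SE 0.56; adjusted p = 0.467), with a 95% interval from −0.66 to 1.92 that leaves a rise of more than 2-fold and a fall undecided at this depth. Without *Themis*-KO replicate 1 the sign turned, to −0.17 (adjusted p = 0.869).

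Among the death receptors, *Tnfrsf10b* (ENSMUSG00000022074), which encodes the mouse TRAIL receptor, rose. It sits on chromosome 14 (69767472 to 69784411, forward strand). Its CPM was 1.15, 1.82 and 2.49 in WT replicates 1 to 3 and 4.80, 5.59 and 3.78 in *Themis*-KO replicates 1 to 3, from 25 to 63 counts and from 80 to 130 counts. The groups did not overlap, and the lowest liver labelled *Themis*-KO was replicate 3. This gave a log2FC of 1.37 (SE 0.29; adjusted p = 0.0356), a 2.58-fold rise. The call was lost when WT replicate 1 or 2 was left out (adjusted p = 0.118 and 0.111) and when *Themis*-KO replicate 1 or 2 was (adjusted p = 0.118 and 0.132), and with the mitochondrial type as a covariate the change was 0.93 (adjusted p = 0.455).

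*Tnfrsf21* (ENSMUSG00000023915; chromosome 17, 43016555 to 43089189, forward strand) encodes DR6, a death receptor studied mainly in neurons and lymphocytes. Its CPM was 9.63, 7.29 and 11.1 in WT replicates 1 to 3 and 19.4, 20.9 and 15.6 in *Themis*-KO replicates 1 to 3. All livers labelled *Themis*-KO were above all WT livers, again with replicate 3 nearest to WT. Its log2FC came to 0.99 (SE 0.18; adjusted p = 0.0255), a 1.99-fold rise. The adjusted p was 0.107, 0.0832, 0.0987 and 0.109 without the same libraries in the same order, and the change was 0.74 (adjusted p = 0.423) with the mitochondrial type as a covariate.

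The other death receptors of the set, *Tnfrsf1a* and *Fas*, were not called. *Tnfrsf1a* (ENSMUSG00000030341; chromosome 6, 125349362 to 125362484, forward strand), the main receptor for soluble TNF, had a CPM of 75.5, 59.7 and 65.7 in WT livers and of 92.2, 93.2 and 66.0 in livers labelled *Themis*-KO. *Themis*-KO replicates 1 and 2 were above all WT livers and replicate 3 was among them. The fitted log2FC was 0.32 (SE 0.15; adjusted p = 0.188, 95% interval −0.027 to 0.68), and 0.45 (adjusted p = 0.0175) without *Themis*-KO replicate 3.

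*Fas* (ENSMUSG00000024778; chromosome 19, 34290666 to 34327772, forward strand), the receptor for FAS ligand, had a CPM of 21.3, 17.3 and 18.2 in WT livers and of 19.3, 17.5 and 14.5 in livers labelled *Themis*-KO. The groups overlapped. Its log2FC came to −0.14 (SE 0.14; adjusted p = 0.498), and its 95% interval, from −0.46 to 0.17, holds neither a 2-fold rise nor a 2-fold fall.

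Of the receptors without a death domain, *Tnfrsf12a* (ENSMUSG00000023905) had the widest spread. The gene (chromosome 17, 23675445 to 23677468, reverse strand) encodes FN14, a small receptor that is scarce in healthy liver and is induced by growth factors and injury. Its CPM was 12.6, 11.2 and 34.0 in WT replicates 1 to 3, and 157, 132 and 32.0 in *Themis*-KO replicates 1 to 3. WT replicate 3 and *Themis*-KO replicate 3 had nearly the same level, between the other livers of both groups. The means were 19.3 ± 12.8 and 107 ± 66.3 (SD, n = 3 each), and the log2FC was 2.47 (SE 0.63, adjusted p = 0.0509, 95% interval 1.00 to 3.93).

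The call for *Tnfrsf12a* changed with the liver left out and with the processing. Without *Themis*-KO replicate 3 the log2FC was 2.88 (SE 0.42, adjusted p = 0.00423), in a fit that called 15% of all genes higher. Without WT replicate 3 it was 3.17 (SE 0.67, adjusted p = 0.0457), where 3.24% of all genes were higher, against 4.97% with all 6 livers. With the mitochondrial type as a covariate it was 1.66 (SE 0.80, adjusted p = 0.52). Its adjusted p was also under the threshold with DESeq2 (0.017), with no filter on low counts (0.00251), with library totals alone (0.0452) and among genes of at least 10 counts in every liver (0.0494). The markers of ducts and neutrophils differed between these livers as well. The summed CPM of 7 cholangiocyte markers was 167, 207 and 194 in WT replicates 1 to 3 and 629, 399 and 401 in *Themis*-KO replicates 1 to 3, and that of 5 neutrophil markers was 6.74, 5.81 and 9.98 against 23.3, 16.3 and 7.7. Of the cholangiocyte markers 1 was called, higher, and of the 4 neutrophil markers tested none. All 4 were higher at an unadjusted p under 0.05, and 1 was higher in DESeq2. Over all genes tested, 4.97% were called higher, 16.8% were higher without adjustment and 9.18% with DESeq2. The part of these cell types in the level of *Tnfrsf12a* was not tested.

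*Tnfrsf1b* (ENSMUSG00000028599; chromosome 4, 145213463 to 145246870, reverse strand) encodes TNFR2, which is found mostly on immune and endothelial cells. Its CPM was 37.9, 28.6 and 35.5 in WT livers and 48.5, 47.3 and 42.6 in livers labelled *Themis*-KO. The groups did not overlap, yet the difference was small, at log2FC 0.44 (SE 0.12, adjusted p = 0.0583, 95% interval 0.16 to 0.72). It passed the threshold with DESeq2 (adjusted p = 0.0232), with no filter on low counts (0.036), with libraries scaled by their totals alone (0.0337) and without *Themis*-KO replicate 3 (0.0225).

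Because TNF and TNFR2 are expressed by immune cells, marker lists were set beside them. The summed CPM of 12 macrophage markers ran from 450 to 779 in WT livers and from 752 to 964 in livers labelled *Themis*-KO, with WT replicate 3 at 779. Of these 12, 1 was called, higher, and 7 were higher and 0 lower without adjustment and also with DESeq2. For 5 every liver labelled *Themis*-KO lay above every WT liver, and 2 of the 12 had a negative log2FC. Over all genes tested, 4.97% were called higher and 4.14% lower, and 16.8% were higher without adjustment. DESeq2 called 9.18% of all genes higher, and for 17.7% every liver labelled *Themis*-KO lay above every WT liver. The 10 T and NK cell markers summed to 4.37 to 6.2 and 3.74 to 7.48, with 5 of them tested and 1 called, lower. The 5 B cell markers summed to 3.07 to 7.29 and 1.98 to 5.81, with none called and none at an unadjusted p under 0.05 in edgeR (0 in DESeq2). The 7 endothelial markers summed to 195 to 213 and 219 to 239, with 1 called, higher. Of the markers of hepatic stellate cells, 5 of 9 were called, all higher (*Pdgfrb*, *Dcn*, *Lum*, *Col1a1* and *Col3a1*). *Lrat*, *Reln*, *Des* and *Acta2* overlapped between the labels and were not called, at log2FC 0.12, 0.053, 0.22 and 0.84. The sums of the 9, at 364 to 414 and 543 to 595, did not overlap. No listed marker gene was at 0 in every library, and the part of these cell types in the receptor levels was not tested.

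None of the regulators of the death pathways was called. *Cflar* (ENSMUSG00000026031; chromosome 1, 58711508 to 58758884, forward strand) had a CPM of 118, 98.9 and 105 in WT livers and of 91.1, 106 and 100 in livers labelled *Themis*-KO. The groups overlapped, and the log2FC of −0.11 (SE 0.099, adjusted p = 0.475, 95% interval −0.34 to 0.12) became 0.029 with libraries scaled by their totals alone. That scaling moved the median of all genes from 0.0095 to 0.15.

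*Ripk3* (ENSMUSG00000022221; chromosome 14, 55784995 to 55788865, reverse strand), the necroptosis kinase that hepatocytes barely express, had a CPM of 1.33, 1.20 and 2.60 in WT livers and of 2.55, 2.71 and 2.03 in livers labelled *Themis*-KO, from 25 to 66 counts over all livers. WT replicates 1 and 2 were the lowest, and WT replicate 3 lay among the livers labelled *Themis*-KO. This gave a log2FC of 0.49 (SE 0.32; adjusted p = 0.329, 95% interval −0.25 to 1.24), and with the mitochondrial type as a covariate it was −0.098 (adjusted p = 0.919).

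*Mlkl* (ENSMUSG00000012519; chromosome 8, 111311797 to 111338177, reverse strand), the executor of necroptosis and an interferon-inducible gene, had a CPM of 7.66, 8.25 and 7.58 in WT livers and of 9.56, 8.82 and 11.6 in livers labelled *Themis*-KO. The groups did not overlap, and *Themis*-KO replicate 3 was the highest of all 6 livers, unlike its place for the receptors. Its log2FC came to 0.35 (SE 0.14; adjusted p = 0.14, 95% interval 0.026 to 0.67), so the difference did not pass the threshold.

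**Figure D2:**
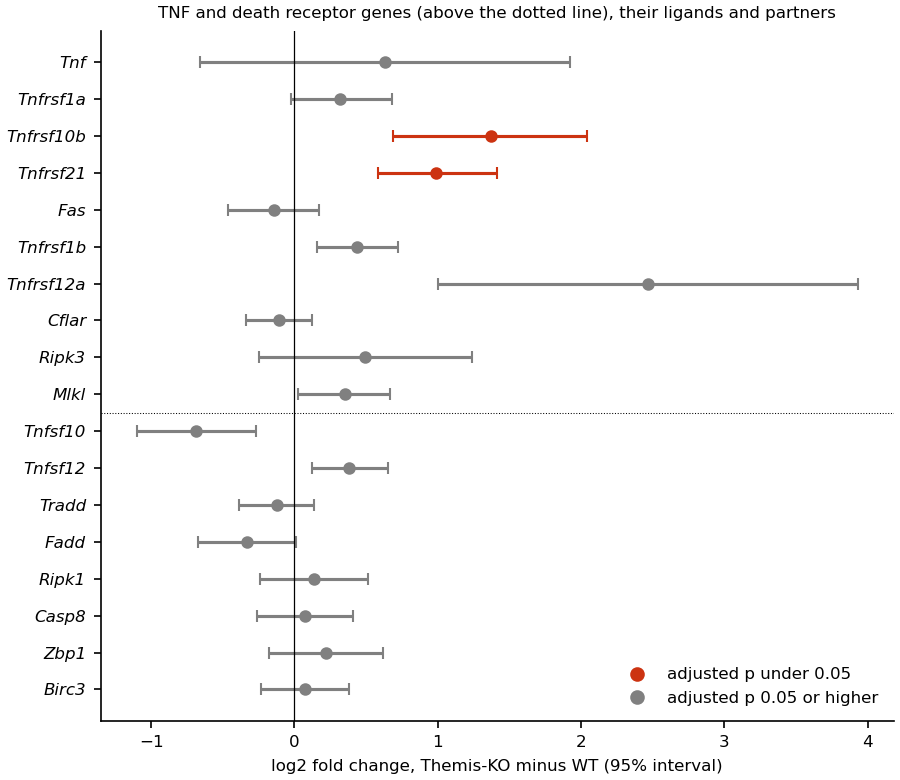
Log2 fold change of livers labelled *Themis*-KO minus WT livers (horizontal axis) with its 95% interval from edgeR, for the 10 genes above the dotted line and for tested ligands and partners below it. *Tnfrsf10b* and *Tnfrsf21* (red) had an adjusted p under 0.05, and *Tnfrsf12a* had the largest estimate and the widest interval.

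Levels of different genes were compared per length of their merged exons, as FPKM (CPM divided by kilobases of exon). In WT livers *Tnfrsf1a* was highest, at 25.8 ± 3.07 FPKM (SD, n = 3), followed by *Tnfrsf12a* (9.97 ± 6.62), *Fas* (9.17 ± 1.02), *Tnfrsf1b* (8.91 ± 1.28) and *Cflar* (8.45 ± 0.766), which did not differ beyond their spread. *Mlkl* (3.40 ± 0.16) and *Tnfrsf21* (2.28 ± 0.47) came next, and *Ripk3* (0.747 ± 0.339), *Tnf* (0.470 ± 0.129) and *Tnfrsf10b* (0.334 ± 0.123) were lowest, again within each other's spread. In livers labelled *Themis*-KO the mean of *Tnfrsf12a*, at 55.5 ± 34.3 FPKM, was above that of *Tnfrsf1a*, at 32.3 ± 5.96 FPKM, but the spread of the former covered the latter. *Tnfrsf1b* was at 12.1 ± 0.82, *Fas* at 8.29 ± 1.20, *Cflar* at 7.83 ± 0.598, *Tnfrsf21* at 4.54 ± 0.66, *Mlkl* at 4.33 ± 0.619, *Ripk3* at 1.06 ± 0.155, *Tnfrsf10b* at 0.867 ± 0.167 and *Tnf* at 0.728 ± 0.56 FPKM. *Tnfrsf10b*, though called, thus stayed among the rarest transcripts of the set under either label. None of the 10 genes shares annotated exon bases with another gene on either strand.

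The stretches just upstream of *Tnfrsf12a*, *Tnfrsf21* and *Tnf* are shown, since these genes had the largest estimate, the smallest p and the ligand's role. RefSeq starts on GRCm38.p6 gave 250 bases upstream for 9 of the 10 genes, all but *Tnfrsf10b*. Capitals mark the GC box GGGCGG on either strand, the site bound by SP1-like factors. The regions are chr17:23677469-23677699 (reverse strand, cut at the annotated GENCODE start to 231 bases), chr17:43016305-43016554 (forward strand) and chr17:35202008-35202257 (reverse strand).
Tnfrsf12a: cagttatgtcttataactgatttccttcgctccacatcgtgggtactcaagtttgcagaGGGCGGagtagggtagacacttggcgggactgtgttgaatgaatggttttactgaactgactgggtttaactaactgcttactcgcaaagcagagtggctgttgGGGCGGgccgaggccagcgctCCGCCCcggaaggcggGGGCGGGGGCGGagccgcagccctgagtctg
Tnfrsf21: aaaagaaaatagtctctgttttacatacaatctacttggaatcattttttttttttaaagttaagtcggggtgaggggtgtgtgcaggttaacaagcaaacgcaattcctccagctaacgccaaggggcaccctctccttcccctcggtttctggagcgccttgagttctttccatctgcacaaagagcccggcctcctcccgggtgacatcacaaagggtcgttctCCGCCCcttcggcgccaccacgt
Tnf: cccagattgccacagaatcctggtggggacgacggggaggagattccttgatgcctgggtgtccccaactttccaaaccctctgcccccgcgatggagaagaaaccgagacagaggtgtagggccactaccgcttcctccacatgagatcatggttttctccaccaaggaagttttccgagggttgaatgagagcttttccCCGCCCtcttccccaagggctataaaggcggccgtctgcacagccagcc
*Tnfrsf12a* has 5 GC boxes in its 250 upstream bases, against 1 each for *Tnfrsf21* and *Tnf*. Of all 32851 promoters of the table, 32.7% have at least 1 and 1.93% at least 5, and 6 of the 9 genes have at least 1. The AP-1 element TGANTCA was found upstream of 1 of the 9 genes, *Fas* (6.75% of all promoters), and the NF-κB consensus of 0 of the 9 (3.9% of all promoters). None of the marked matches overlaps another motif searched. These are matches of letters in a short window.

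The ligands of these receptors were examined next. *Tnfsf10*, which encodes TRAIL, the ligand of DR5, had a CPM of 12.2, 10.4 and 10.8 in WT livers and of 6.76, 5.42 and 8.55 in livers labelled *Themis*-KO. All livers labelled *Themis*-KO lay below all WT livers, at log2FC −0.69 (SE 0.18, adjusted p = 0.0523), short of the threshold with edgeR and past it with DESeq2 (adjusted p = 0.00802), with no filter on low counts (0.0181) and without *Themis*-KO replicate 3 (0.00654). *Tnfsf12*, which encodes TWEAK, the ligand of FN14, had a CPM of 10.6, 11.4 and 11.4 in WT livers and of 15.8, 14.7 and 13.0 in livers labelled *Themis*-KO, at log2FC 0.38 (SE 0.11, adjusted p = 0.0707). The groups did not overlap for *Tnfsf12* either, and it passed with library totals alone (adjusted p = 0.0389) and without *Themis*-KO replicate 3 (0.0197). In the annotation 48.3% of the exon bases of *Tnfsf12* also belong to *Tnfsfm13* on the same strand, so its reads could be divided and its value is uncertain. *Fasl*, at 1 to 3 counts in WT livers and 2 to 9 in livers labelled *Themis*-KO, and *Lta*, at 0 to 2 counts in every liver, were too rare to be tested.

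Of 37 other ligands and receptors of the TNF superfamily, 36 were in the count table and 22 were tested, of which 3 were higher and 0 lower. Unadjusted, p was under 0.05 for 12 higher and 1 lower, and DESeq2 called 6 higher and 1 lower. The share higher was 13.6%, against 4.97% of all genes, and the background of the unadjusted counts is 16.8% higher and 13.9% lower, that of DESeq2 9.18% and 7.83%. The first was *Tnfrsf13b* (TACI, a receptor for BAFF and APRIL), at log2FC 1.52 (SE 0.34, adjusted p = 0.0386). The others were *Eda2r* (a receptor for ectodysplasin A2), with 1.12 (SE 0.25, adjusted p = 0.0397), and *Tnfrsf23* (a mouse decoy receptor for TRAIL), with 0.90 (SE 0.18, adjusted p = 0.0317). *Eda2r* had a CPM of 1.61, 1.92 and 2.96 in WT livers and of 4.46, 5.46 and 4.25 in livers labelled *Themis*-KO, the same order of WT livers as *Tnfrsf10b*. *Tnfrsf23* had 1.88, 1.97 and 2.05 against 3.19, 4 and 3.83, and its near copies *Tnfrsf22* and *Tnfrsf26* could share reads with it, as could the antisense *E230032D23Rik* over 4.14% of its exon bases, so its value is uncertain. *Tnfrsf13b* was at 0.275 to 0.576 CPM in WT livers and at 1.12 to 1.57 in livers labelled *Themis*-KO. These levels rest on 6 to 14 and 26 to 37 counts, close to the detection limit. The gene is therefore absent from the fit on genes of at least 10 counts in every liver. Without *Themis*-KO replicate 3, 10 of the list were higher, without WT replicate 3 only 1 was, and without any one of the other 4 livers 0 were (7 to 10 without adjustment). The share of all genes higher was 15% and 3.24% in the first pair of fits and at most 0.183% in the others, where 10.9% to 12.3% of all genes were higher without adjustment.

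Inside the cell, 39 genes of the receptor complexes, of NF-κB and of TNF shedding were listed and tested. Of these, 4 were higher (10.3%) and 1 was lower, without adjustment 14 were higher and 3 lower, and DESeq2 called 12 higher and 1 lower. Over all genes these shares were 4.97% and 4.14% as called, 16.8% and 13.9% without adjustment, and 9.18% and 7.83% with DESeq2. *Tnfaip3*, which encodes A20, the ubiquitin-editing brake on NF-κB and an NF-κB target, had a CPM of 7.20, 7.44 and 9.12 in WT livers and of 18.0, 16.9 and 14 in livers labelled *Themis*-KO. Its groups were well apart, at log2FC 1.04 (SE 0.15, adjusted p = 0.0145), the smallest p of the 4 lists. *Tnip1*, whose product ABIN1 partners A20, rose by 0.69 in log2 units (SE 0.16, adjusted p = 0.0402), *Traf2*, the adaptor of TNFR2 and FN14, by 0.57 (SE 0.13, adjusted p = 0.0412), and *Rhbdf1*, whose product iRhom1 helps the TNF sheddase ADAM17 mature, by 0.92 (SE 0.18, adjusted p = 0.0305). *Chuk*, the kinase IKKα, fell by 0.37 (SE 0.086, adjusted p = 0.0418) and was short of the threshold with libraries scaled by their totals alone (adjusted p = 0.0985). The counts higher were 18 without *Themis*-KO replicate 3, 2 without WT replicate 3 and 0 without any one of the other 4 livers (11 to 12 without adjustment), fits in which 15%, 3.24% and at most 0.183% of all genes were higher. In the last 4 of these fits, 10.9% to 12.3% of all genes were higher without adjustment. Of the fits with a liver left out, *Chuk* was called only in that without *Themis*-KO replicate 3.

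The adaptors and partners *Tradd*, *Ripk1*, *Fadd* and *Birc3* were not called. *Tradd* (log2FC −0.12, SE 0.11, adjusted p = 0.50) and *Ripk1* (0.14, SE 0.16, adjusted p = 0.591) differed by less than the spread between livers. *Fadd*, the adaptor of FAS and DR5, was below every WT liver in every liver labelled *Themis*-KO, at 7.52, 8.43 and 10.3 CPM against 11.9, 10.4 and 10.7, at log2FC −0.33 (SE 0.15, adjusted p = 0.173), and passed the threshold only without *Themis*-KO replicate 3 (adjusted p = 0.0283). Antisense *Faddos* overlaps 6.12% of its exon bases, and 6.12% of those of *Ripk1* also belong to *Gm17084* and 2.89% lie opposite *Serpinb6a*. *Birc3* (0.076, SE 0.13, adjusted p = 0.729), the inhibitor of apoptosis that ubiquitinates RIPK1, stayed within its spread and turned to −0.13 with the mitochondrial type as a covariate.

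Among 25 genes of cell death execution, all tested, 1 was higher and 0 lower (4% higher, against 4.97% of all genes). Without adjustment 7 were higher and 2 lower, where 16.8% and 13.9% of all genes were, and DESeq2 called 4 higher and 1 lower, where it called 9.18% and 7.83% of all genes. The call was *Bax*, the pore-forming BCL2 family member, at log2FC 0.52 (SE 0.12, adjusted p = 0.0426). *Bax* had a CPM of 24.8, 26.9 and 32.8 in WT livers and of 42.5, 41.5 and 36.8 in livers labelled *Themis*-KO. In the annotation 12.2% of its exon bases also belong to *Gm45808*, so reads could be divided. The count higher was 5 without *Themis*-KO replicate 3, 2 without WT replicate 3 and 0 without any one of the others (4 to 5 without adjustment), where 15%, 3.24% and at most 0.183% of all genes were higher. In the last of these fits, 10.9% to 12.3% of all genes were higher without adjustment. *Casp8*, the initiator caspase recruited by FAS and DR5, differed by 0.072 (SE 0.14, adjusted p = 0.763, 95% interval −0.26 to 0.41), and *Zbp1*, an activator of RIPK3, by 0.22 (SE 0.17, adjusted p = 0.407, 95% interval −0.18 to 0.62). The medians of the 3 lists were 0.62, 0.23 and 0.083 in the order given.

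**Figure D3:**
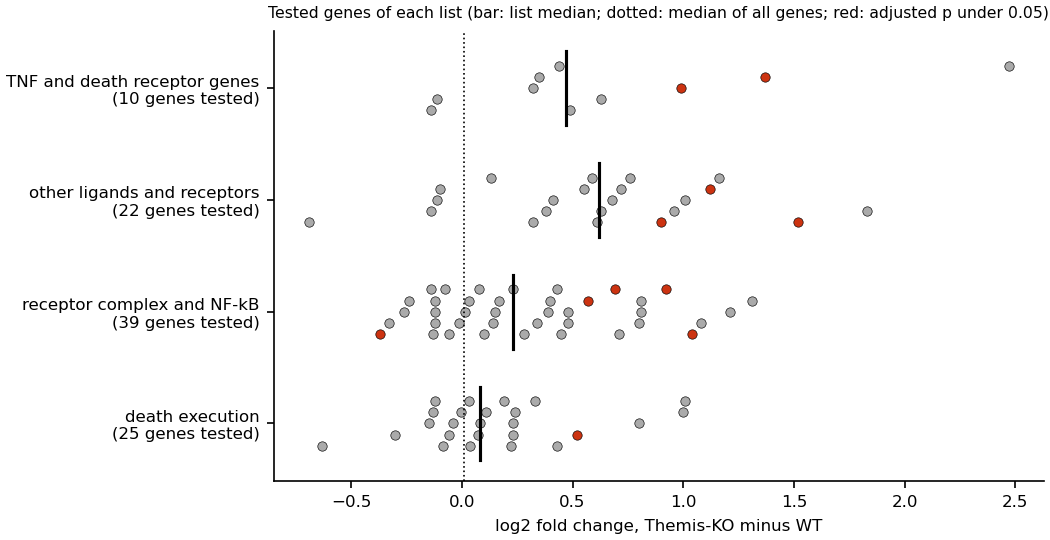
Log2 fold change of livers labelled *Themis*-KO minus WT livers (horizontal axis) for each tested gene of the 10-gene set and of the 3 pathway lists, with adjusted p under 0.05 in red, list medians as bars and the median of all genes, 0.0095, as a dotted line. The 10 genes have a median of 0.47, the 22 other ligands and receptors 0.62, the 39 signalling genes 0.23 and the 25 execution genes 0.083.

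How far single livers carried the receptor calls is shown by leaving each out. Without *Themis*-KO replicate 3, 5 of the 10 genes were higher, the 4 receptors called by DESeq2 and *Tnfrsf1a*, where 15% of all genes were. Without WT replicate 3, 3 were higher (*Tnfrsf10b*, *Tnfrsf21* and *Tnfrsf12a*), where 3.24% of all genes were, and without any one of the other 4 livers 0 were, while 4 to 5 stayed at an unadjusted p under 0.05 and at most 0.183% of all genes were higher in those 4 fits (10.9% to 12.3% without adjustment). The estimates kept their sign throughout, from 1.12 to 1.67 for *Tnfrsf10b*, from 0.84 to 1.14 for *Tnfrsf21*, from 2.08 to 3.17 for *Tnfrsf12a* and from 0.33 to 0.52 for *Tnfrsf1b* on the log2 scale. Within the mitochondrial type of WT replicate 3, which leaves that single WT liver, they were 0.91, 0.73, 1.64 and 0.36, and no gene of the 10 was called (2 higher at an unadjusted p under 0.05). That fit called 0% of all genes higher, with 3.64% higher without adjustment, so it could show no call among the 10.

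**Figure D4:**
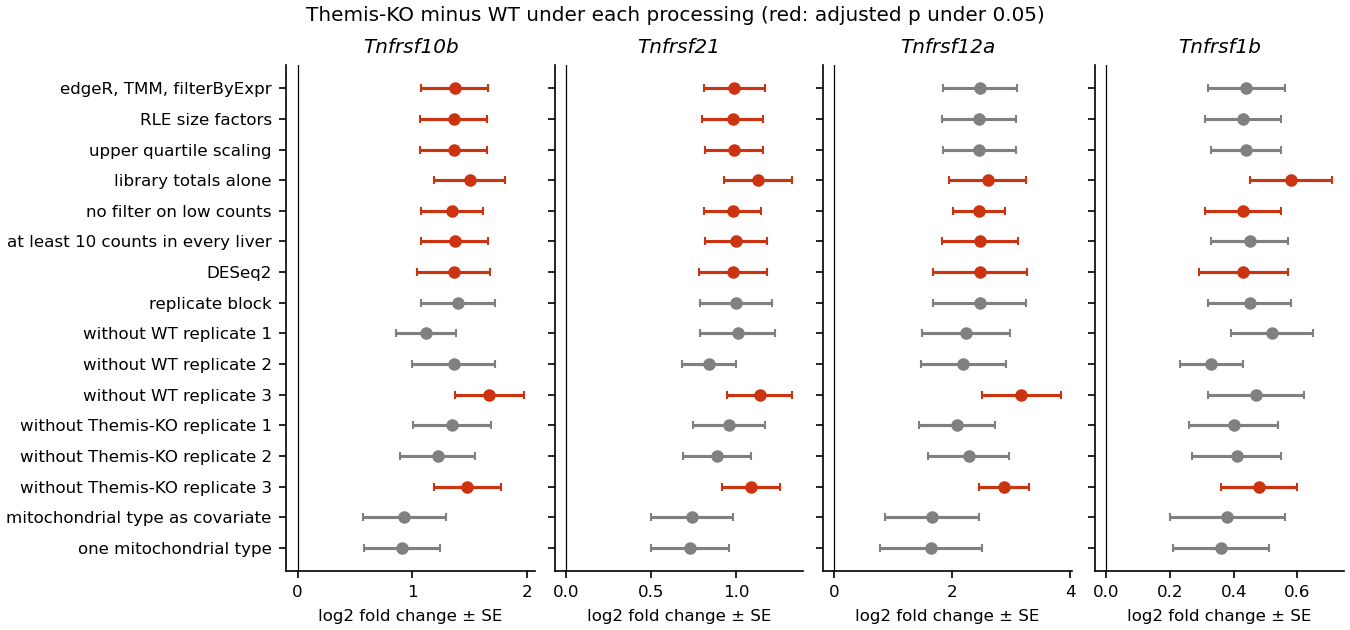
Log2 fold change ± SE (horizontal axes) of 4 receptors under each processing and with each liver left out, red where the adjusted p was under 0.05. All estimates are above 0, and the calls change with the liver left out.

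The genes whose profile over the 6 livers was most like that of each called receptor, by Pearson's r of log2 CPM, are given as a description. For *Tnfrsf10b* they were *Rab31* (r = 0.9981), *Slc37a2* (0.9981) and *Arhgap9* (0.9973), and for *Tnfrsf21* they were *Fcgr1* (0.9982), *Tnfaip1* (0.9949) and *Fabp4* (0.9947). The 6 points share their libraries and the difference between labels.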

How the data were processed

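Liver mRNA of 3 mice per label was sequenced as 151 bp paired-end poly(A) libraries. The authors mapped reads to GRCm38 with STAR 2.7.8a and estimated gene counts with RSEM 1.3.3 (cutadapt 2.3 is also in the submitters' processing notes), and the deposited estimated counts are whole numbers without normalization. The annotation release and the strand setting are not given in the sources used here. Replicates are separately numbered livers, and p-values measure the spread between them. Pairs of livers within a label differed by a chi-square of at least 9.81 per degree of freedom, where a repeated library would lie near 1.

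In R 4.3.3, edgeR 4.0.16 kept 14496 genes by filterByExpr (10907 were left out), scaled by TMM and compared the labels with glmQLFit and glmQLFTest over all 6 livers, without covariates. SE was taken as |log2 fold change| over the root of F. DESeq2, the study's own tool (here version 1.42.0), was an alternative, beside other scalings, filters, a replicate block and each liver left out. Fits with the mitochondrial type were chosen after seeing the data. FPKM used merged exons of GENCODE vM21 (GRCm38). The main edgeR fit and the DESeq2 fit were first run on a simulated count matrix in which 200 genes had been changed. The other fits were not run on it. The genes and lists were chosen with earlier results of these data known. Named beside the 10 genes are fixed ligands and partners, up to 6 called genes of each pathway list, and the 3 genes most like each called receptor (prior count 2). Other genes were named after their values were seen. Figures were drawn with matplotlib 3.10.9.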

Additional observations from a re-analysis of the deposited data

How the results depend on the processing

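The 2 calls of the set held with RLE and upper quartile scaling, DESeq2, no filter, library totals and at least 10 counts in every liver, and were lost with the replicate block and the mitochondrial type. With the block the log2 fold changes were 1.40 for *Tnfrsf10b* and 1.0 for *Tnfrsf21*, against 1.37 and 0.99 without it. Counts higher and lower follow for the 10 genes, the ligands and receptors, the receptor complex list and the execution list. They were 2 and 0, 3 and 0, 4 and 1, and 1 and 0 in the report. With library totals alone they were 4 and 0, 8 and 0, 10 and 0, and 5 and 0. With no filter they were 4 and 0, 6 and 1, 11 and 1, and 4 and 1. With DESeq2 they were 4 and 0, 6 and 1, 12 and 1, and 4 and 1. At an adjusted p under 0.1 they were 4 and 0, 9 and 1, 11 and 1, and 5 and 2. With upper quartile scaling *Chuk* was not called, so the receptor complex list had 0 lower.

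Same-numbered livers did not deviate together (correlations 0.00028, −0.24 and −0.16), so the numbers are not taken as pairs. With the replicate block, the mitochondrial type as a covariate or 1 mitochondrial type alone, all 8 counts were 0, where 0.117%, 0% and 0% of all genes were higher and 0.31%, 0.0207% and 0.0587% lower, so these zeros are no result about the lists. At an unadjusted p under 0.05 the block gave 4 of the 10 genes higher and 0 lower, and both other fits gave 2 and 0, where 13.4%, 5.4% and 3.64% of all genes were higher. With each liver left out, the counts higher ranged from 0 to 5, 0 to 10, 0 to 18 and 0 to 5, and the counts lower from 0 to 0, 0 to 1, 0 to 4 and 0 to 1, each highest without *Themis*-KO replicate 3. Of 27 named genes, 11 were called. Those from the pathway lists were named because they were called, so this count is not a share to compare with all genes. All 11 lost the call when replicate 1 or 2 of either label was left out, and 6 lost it without the third WT liver. The causes were not tested.

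Signs turned for genes that were not called. With library totals alone *Cflar* was at 0.029 and *Tradd* at 0.017. With the mitochondrial type as a covariate *Ripk3* was at −0.098 and *Birc3* at −0.13, and within 1 mitochondrial type *Ripk3* was at −0.12, *Birc3* at −0.15 and *Casp8* at −0.0096. With each liver left out, *Tnf* ranged from −0.17 to 1.00, *Casp8* from −0.032 to 0.20 and *Birc3* from −0.027 to 0.19. Counts of 9 to 52 limit *Tnf*, and fewer than 70 limit *Ripk3*.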
